A study of Mus musculus with 6 samples.

Results

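The aryl hydrocarbon receptor (AHR) is a transcription factor of the cytoplasm that binds planar aromatic compounds, tryptophan metabolites among them. On binding a ligand it enters the nucleus, pairs with ARNT and switches on genes whose enhancers hold a short response element with the core GCGTG. Its classical targets are the cytochrome P450 genes of family 1, other enzymes of xenobiotic metabolism, and genes that shut the receptor off again. In liver this system clears foreign compounds, and mouse hepatoma lines related to Hepa1-6 are a standard setting for inducing Cyp1a1. In leukocytes the receptor is known for reading dietary, microbial and tryptophan-derived ligands.

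The 9 genes examined here were listed by name as the receptor, its partner, its repressor and its best known targets, and all 9 had an entry among the 21959 genes of the deposited table. They are Ahr, Arnt and Ahrr, the P450 genes Cyp1a1, Cyp1a2 and Cyp1b1, the feedback gene Tiparp, and the detoxifying enzyme genes Nqo1 and Aldh3a1. RNA had been sequenced from mouse cells labelled as neutrophils, of tumours grown from the mouse hepatoma cell line Hepa1-6. The groups were 3 libraries labelled GPR35-positive and 3 labelled GPR35-negative, GPR35 being a G protein-coupled receptor for which tryptophan metabolites have been proposed as ligands. The labels name no other treatment, and the sources used here do not give mouse strain, age, genotype, tumour site or the way cells were sorted. Whether replicates stem from different mice is not stated, and p-values therefore describe the spread among these libraries, which may be technical.

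The libraries held between 15742744 and 18314104 reads assigned to genes, and Gpr35 itself was at 20.2 ± 1.89 FPKM in GPR35-positive and 1.57 ± 0.398 FPKM in GPR35-negative libraries (SD, n = 3 each). FPKM values divide a gene's reads by its length and by the library's depth. The neutrophil label held only in part. The 27 hepatocyte and hepatoma transcripts with an entry summed to 23642 to 24130 FPKM in GPR35-positive and 35889 to 37482 FPKM in GPR35-negative libraries. The 17 mature neutrophil markers summed to 9951 to 10909 FPKM in GPR35-positive and 906 to 1159 FPKM in GPR35-negative libraries, and the 14 macrophage and monocyte markers to 941 to 972 FPKM in GPR35-positive and 38.0 to 52.3 FPKM in GPR35-negative libraries. None of the hepatocyte, hepatoma or neutrophil markers was at 0 in any library. Across the 10060 genes that reached 1 FPKM in 3 or more libraries, limma-trend called 68.8% at an adjusted p under 0.05, 23.3% as higher and 45.5% as lower in GPR35-positive libraries, with a median log2 fold change of -0.19 over all genes tested. That background stands behind each count below.

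Promoter windows from RefSeq (build GRCm38.p6) were matched for 7 of the 9 genes, each reaching from 250 bases before the start that RefSeq annotates to 50 bases after it. For Cyp1a1 that start lies inside the longer span that GENCODE M21 gives the gene, printed further on. The 3 shown belong to the target gene with the largest fall as deposited, the target gene that rose, and the repressor gene, whose window holds more copies of the core than any other of the 7. Sequences run from 5′ to 3′ on the strand of the gene, and capitals mark the core GCGTG or its reverse complement CACGC. The Cyp1a1 window lies on the forward strand at chr9:57697363-57697662, the Tiparp window on the forward strand at chr3:65528197-65528496, and the Ahrr window on the reverse strand at chr13:74292282-74292581.
Cyp1a1: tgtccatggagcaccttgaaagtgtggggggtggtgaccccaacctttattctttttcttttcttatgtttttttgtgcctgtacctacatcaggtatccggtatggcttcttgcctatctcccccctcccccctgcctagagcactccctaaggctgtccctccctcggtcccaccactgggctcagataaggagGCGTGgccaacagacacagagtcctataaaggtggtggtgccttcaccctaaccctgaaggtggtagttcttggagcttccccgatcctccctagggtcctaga
Tiparp: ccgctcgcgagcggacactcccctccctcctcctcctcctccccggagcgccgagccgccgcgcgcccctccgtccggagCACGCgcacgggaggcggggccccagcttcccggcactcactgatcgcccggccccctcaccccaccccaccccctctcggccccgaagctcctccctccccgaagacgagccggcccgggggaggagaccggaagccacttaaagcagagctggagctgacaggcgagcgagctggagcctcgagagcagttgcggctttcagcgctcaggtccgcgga
Ahrr: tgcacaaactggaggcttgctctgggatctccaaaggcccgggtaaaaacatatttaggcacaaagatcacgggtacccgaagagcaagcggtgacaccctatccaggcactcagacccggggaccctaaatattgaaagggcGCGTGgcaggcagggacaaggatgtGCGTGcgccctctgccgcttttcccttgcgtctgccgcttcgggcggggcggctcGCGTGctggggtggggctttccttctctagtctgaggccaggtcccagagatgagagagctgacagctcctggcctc
The core stood once in the Cyp1a1 window, beginning 54 bases before the RefSeq start, once in the Tiparp window, beginning 170 bases before it on the opposite strand, and 3 times in the Ahrr window. Arnt and Cyp1b1 held 1 copy each, and Cyp1a2 and Nqo1 held none. Searched on both strands, the core occurred in 32.4% of the 32851 promoter windows of the same length, so a match in 5 of 7 is a description of these letters only. The longer form TNGCGTG was found in Ahrr alone among the 7 and in 5.07% of all windows. The enhancers through which AHR acts on Cyp1a1 are known to lie further upstream than this window.

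As deposited, the receptor gene did not differ detectably between the groups. Relative to the hepatoma transcripts described below, limma-trend called it higher (0.47, adjusted p = 0.0206). On that scale 61.5% of all genes tested were called higher, as were 10 of the 27 hepatoma transcripts themselves, with 2 called lower. Ahr (ENSMUSG00000019256), which spans 35497974 to 35535038 of chromosome 12 (reverse strand, GRCm38), was at 26.5, 30.4 and 27.4 FPKM in GPR35-positive libraries, and at 24.3, 28.7 and 41.7 FPKM in GPR35-negative libraries. The groups overlapped, and GPR35-negative replicate 3 lay above the other 5 libraries. Its log2 fold change was -0.13 with a 95% interval from -0.48 to 0.22 (adjusted p = 0.483), an interval that takes in a fall and a small rise. The sign also turned without GPR35-negative replicate 3 (0.09, adjusted p = 0.433) and with median-of-ratios scaling (0.01, adjusted p = 0.968). Ahr was covered by 2581 to 4049 reads in each library, and counting error was therefore small beside the spread between GPR35-negative libraries. In these bulk libraries fewer cells of a type and less RNA per cell cannot be told apart, for Ahr as for every gene that follows.

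Arnt, which encodes the dimer partner that AHR shares with the hypoxia-inducible factors, was at 8.49, 10.3 and 9.01 FPKM in GPR35-positive libraries and at 12.04, 11.8 and 10.6 FPKM in GPR35-negative libraries. As deposited, every GPR35-positive library lay below every GPR35-negative one, by a narrow margin between 10.3 and 10.6 FPKM. Groups failed to overlap in that direction in 48.2% of all genes tested. The log2 fold change of Arnt was -0.28 as deposited (SE 0.09, adjusted p = 0.0186) and 0.28 relative to the hepatoma transcripts described below, and the deposited call was lost with median-of-ratios scaling (adjusted p = 0.156), with limma-voom on recovered reads (adjusted p = 0.0701) and on leaving out any of GPR35-positive replicates 1 and 3 and GPR35-negative replicates 1 and 2. Ahrr, the gene of the AHR repressor, which competes with AHR for ARNT, was at 0.0185, 0.0454 and 0.0174 FPKM in GPR35-positive libraries and at 0.0184, 0.0188 and 0 FPKM in GPR35-negative libraries. These levels rest on 13 reads in all GPR35-positive and 6 reads in all GPR35-negative libraries, with exact 95% Poisson intervals of 6.92 to 22.2 and 2.20 to 13.1 reads that cover counting error only. Ahrr was below the filter, and a difference was not detectable at this depth.

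**Figure D1:**
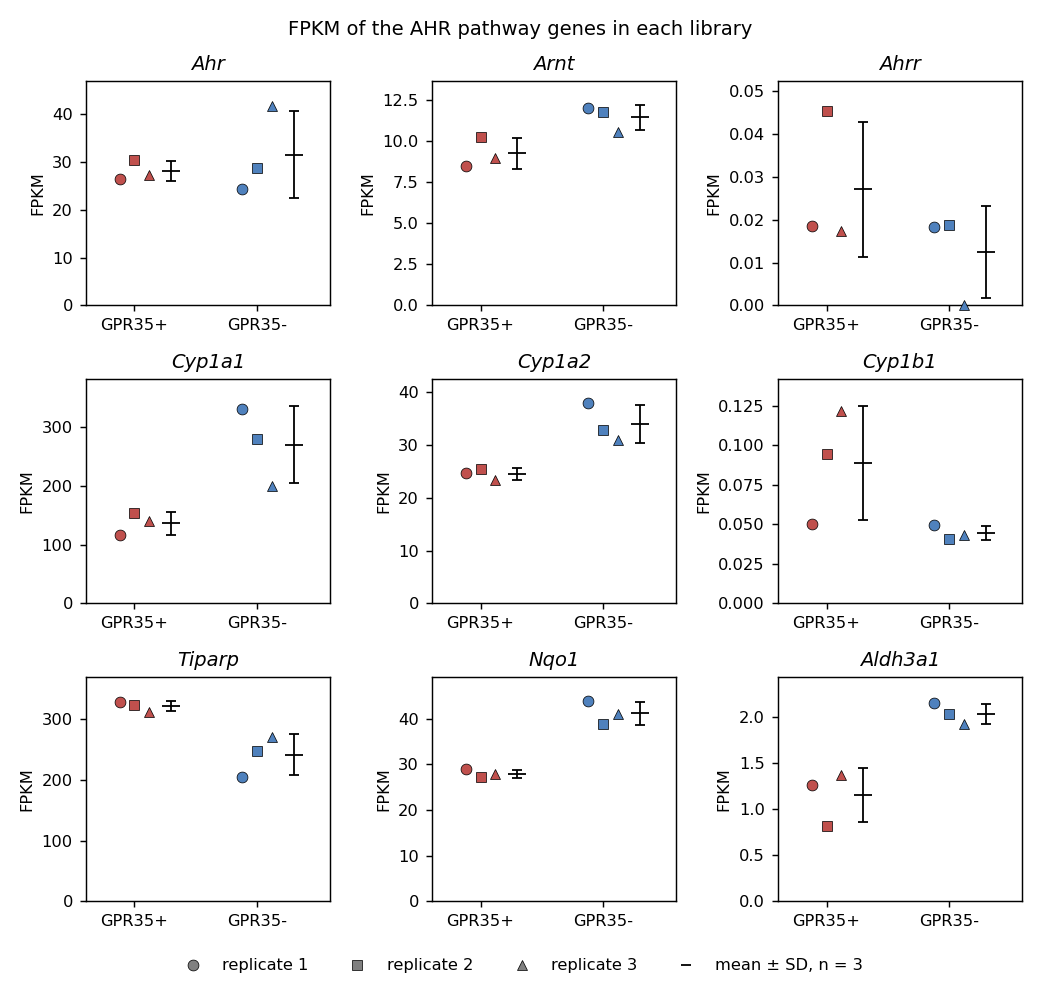
FPKM of each of the 9 AHR pathway genes (vertical axes from 0, each with its own scale) in the 3 GPR35-positive libraries (red, left) and the 3 GPR35-negative libraries (blue, right), with the symbol giving the replicate number and the bar the mean ± SD. As deposited, Cyp1a1, Cyp1a2, Nqo1, Aldh3a1 and Arnt lie lower in every GPR35-positive library and Tiparp higher (relative to the hepatoma transcripts the signs of Cyp1a2, Nqo1 and Arnt turn). Of all genes tested, 48.2% lie lower and 24.3% higher without overlap as deposited. Ahr overlaps, and Ahrr and Cyp1b1 stay at or under 0.122 FPKM.

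Among the P450 genes, Cyp1a1 and Cyp1a2 fell as deposited and Cyp1b1 was barely detected. Relative to the hepatoma transcripts the Cyp1a1 call was lost (-0.34, adjusted p = 0.0997) and the sign of Cyp1a2 turned. Cyp1a1 (ENSMUSG00000032315), whose enzyme oxidises polycyclic aromatic hydrocarbons and AHR ligands and whose transcript is the usual readout of AHR activity, spans 57687928 to 57703824 of chromosome 9, forward strand. It was at 116, 154 and 139 FPKM in GPR35-positive libraries and at 331, 279 and 200 FPKM in GPR35-negative libraries. No GPR35-positive library reached the lowest GPR35-negative one, which held for 48.2% of all genes tested. The GPR35-negative libraries differed 1.65-fold in Cyp1a1 among themselves. The log2 fold change was -0.96 (SE 0.16, 95% interval -1.32 to -0.59, adjusted p = 0.000558), and only 28 of the 10060 genes tested had a lower one. By mean FPKM, Cyp1a1 ranked 416 of 21959 genes in GPR35-positive libraries and 164 in GPR35-negative libraries.

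Cyp1a2 (ENSMUSG00000032310), the neighbour of Cyp1a1 on the opposite strand and in liver an enzyme of adult hepatocytes, was at 24.8, 25.5 and 23.3 FPKM in GPR35-positive libraries and at 37.9, 32.9 and 31.0 FPKM in GPR35-negative libraries. As deposited the groups did not overlap, which held in that direction for 48.2% of all genes tested. The log2 fold change of Cyp1a2 was -0.45 as deposited (SE 0.09, adjusted p = 0.0011) and 0.15 relative to the hepatoma transcripts. The exons of Cyp1a1 and Cyp1a2 do not overlap in GENCODE M21, but reads of these related genes may have been split in the authors' counting. Cyp1a1 stood at 4.67, 6.04 and 5.96 times the FPKM of Cyp1a2 in GPR35-positive libraries and at 8.71, 8.48 and 6.46 times in GPR35-negative libraries, so the ratio was lower in all 3 GPR35-positive libraries (exact permutation p = 0.1, two-sided, the smallest that 3 against 3 libraries allow, and 0.15 adjusted over the 3 pairs of members compared). Cyp1b1, the member of the family expressed mainly outside liver, was at 0.04997, 0.0944 and 0.122 FPKM in GPR35-positive libraries and at 0.04965, 0.0404 and 0.0435 FPKM in GPR35-negative libraries. It was covered by 27 reads in all GPR35-positive and 13 reads in all GPR35-negative libraries, with Poisson intervals of 17.8 to 39.3 and 6.92 to 22.2 reads. Tested without a filter it did not pass (adjusted p = 0.132).

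Tiparp was the one member that rose as deposited. It encodes a mono-ADP-ribosyltransferase that AHR induces and that in turn dampens AHR, and it spans 65528410 to 65555518 of chromosome 3, forward strand (ENSMUSG00000034640). Tiparp was at 328, 323 and 312 FPKM in GPR35-positive libraries and at 204, 248 and 271 FPKM in GPR35-negative libraries. All GPR35-positive libraries lay above all GPR35-negative ones, which held for 24.3% of all genes tested. The spread of Tiparp was 1.05-fold among the GPR35-positive and 1.33-fold among the GPR35-negative libraries. The log2 fold change was 0.42 (SE 0.10, 95% interval 0.21 to 0.64, adjusted p = 0.00315), and 18.5% of all genes tested had a higher one. A pseudogene on the opposite strand overlaps 5.12% of the exon bases of Tiparp and a lincRNA gene likewise 2.06% of those of Ahr, and the sources used here do not say whether strand was used in counting.

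Set against each other, Tiparp stood at 2.83, 2.09 and 2.24 times the FPKM of Cyp1a1 in GPR35-positive libraries and at 0.618, 0.889 and 1.35 times in GPR35-negative libraries. Tiparp was thus the more abundant transcript per length in every GPR35-positive library, while Cyp1a1 was in GPR35-negative replicates 1 and 2. The log2 difference of the ratio was 1.39 (exact permutation p = 0.1, the smallest possible, and 0.15 adjusted). A ratio within a library does not depend on how libraries are scaled. Cyp1a1 over Ahr was 4.36, 5.07 and 5.08 in GPR35-positive libraries and 13.6, 9.71 and 4.79 in GPR35-negative libraries, with overlapping groups (exact permutation p = 0.3). GPR35-negative replicate 3 held the most Ahr and the least Cyp1a1 of its group.

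The enzyme genes Nqo1 and Aldh3a1 fell as deposited, Nqo1 with a sign that turned relative to the hepatoma transcripts. Nqo1, the gene of a quinone reductase that answers both to AHR and to the oxidative stress factor NRF2, was at 28.9, 27.1 and 27.9 FPKM in GPR35-positive libraries and at 43.8, 38.8 and 40.9 FPKM in GPR35-negative libraries. The libraries of each group lay close together, and the log2 fold change was -0.54 as deposited (SE 0.07, adjusted p = 0.000101). Aldh3a1, which encodes an aldehyde dehydrogenase of the AHR gene battery, was at 1.26, 0.820 and 1.378 FPKM in GPR35-positive libraries and at 2.15, 2.04 and 1.93 FPKM in GPR35-negative libraries. Aldh3a1 had a log2 fold change of -0.51 (adjusted p = 0.00184, SE 0.11), which was -0.80 with a pseudocount of 0.1 and -0.14 relative to the hepatoma transcripts, where the call was lost (adjusted p = 0.305). It rests on 26 to 49 reads in GPR35-positive and 59 to 72 reads in GPR35-negative libraries. In all, 1 of the 7 members tested rose, 5 fell and 1 did not pass, and their median log2 fold change was -0.45, beside 23.3% higher and 45.5% lower of all genes tested.

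The falls were then set beside the abundant hepatoma transcripts, which as deposited were lower in the same libraries. Of the 27 hepatocyte and hepatoma transcripts, 22 fell and 1, Serpina1a, rose, with a median log2 fold change of -0.58. The 6 most abundant were the transferrin gene Trf, the keratin genes Krt18 and Krt8, the retinol carrier gene Rbp4, the lipoprotein gene Apoe and the albumin gene Alb, and their ratios of mean FPKM, GPR35-positive over GPR35-negative, were 0.657, 0.648, 0.670, 0.609, 0.659 and 0.566. Ratios ran from 0.548 to 0.809 over the 15 list members with a mean of at least 100 FPKM. Those of Cyp1a2 at 0.723 and Nqo1 at 0.680 lay inside that range, as did Aldh3a1 at 0.566 and Arnt at 0.808. Cyp1a1 at 0.506 lay below all 15. Ahr at 0.891 and Tiparp at 1.33 lay above all 15. Alb shared with Cyp1a1 the low value in GPR35-negative replicate 3, with 544, 645 and 624 FPKM in GPR35-positive libraries and 1258, 1115 and 829 FPKM in GPR35-negative libraries.

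**Figure D2:**
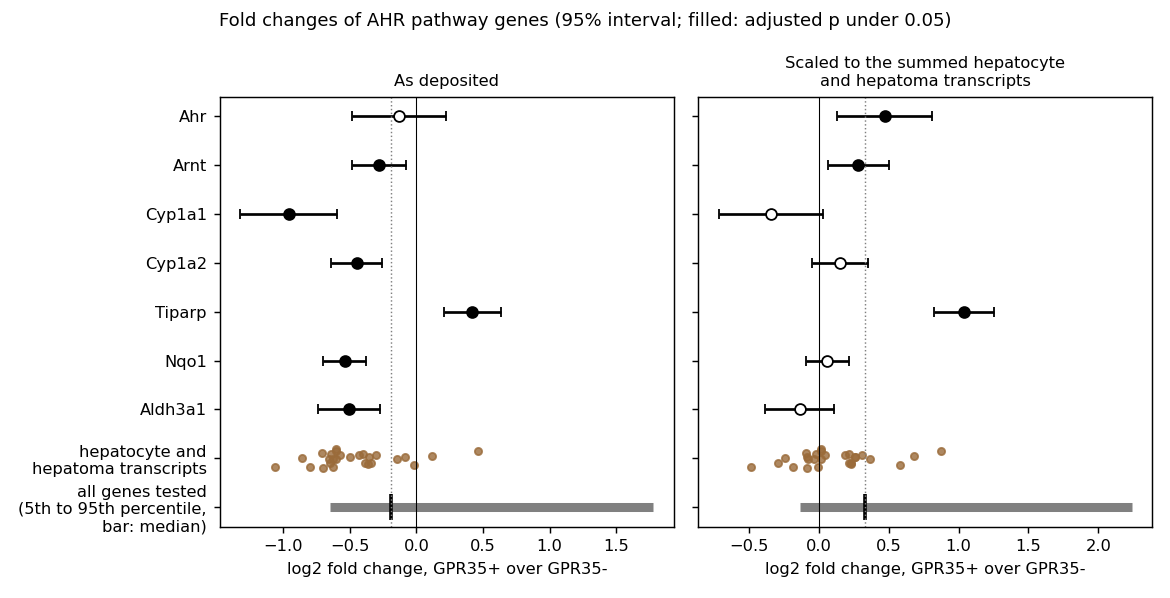
Log2 fold change of GPR35-positive over GPR35-negative libraries for the 7 members tested (points with 95% intervals, filled where the adjusted p is under 0.05), each of 27 hepatocyte and hepatoma transcripts (brown) and the percentile range of all 10060 genes tested (grey bar), as deposited (left) and after scaling to the summed hepatocyte and hepatoma transcripts (right). On the left Cyp1a1 lies lowest of the members at -0.96 and Tiparp highest at 0.42; on the right Tiparp is at 1.04, Ahr at 0.47 and Nqo1 at 0.06.

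As a percent of the summed hepatocyte and hepatoma transcripts, Tiparp was higher in GPR35-positive libraries and the groups overlapped for Ahr, Cyp1a1, Cyp1a2, Nqo1 and Aldh3a1. Tiparp amounted to 1.37%, 1.37% and 1.29% of that sum in GPR35-positive libraries and to 0.553%, 0.690% and 0.722% in GPR35-negative libraries, 2.06-fold higher with groups well apart. Nqo1 amounted to 0.120%, 0.115% and 0.116% in GPR35-positive libraries and 0.119%, 0.108% and 0.109% in GPR35-negative libraries, which overlap. Cyp1a1 amounted to 0.483%, 0.652% and 0.577% in GPR35-positive libraries and to 0.895%, 0.776% and 0.534% in GPR35-negative libraries. GPR35-negative replicate 3 lay among the GPR35-positive values, and the exact permutation p was 0.3, or 0.35 adjusted over 7 members. On this measure 2 of the 7 members, Tiparp and Arnt, were higher without overlap and 0 were lower, while 66.5% of all genes tested were higher without overlap and 1.4% lower. With 3 against 3 libraries the smallest p is 0.10, above the threshold.

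**Figure D3:**
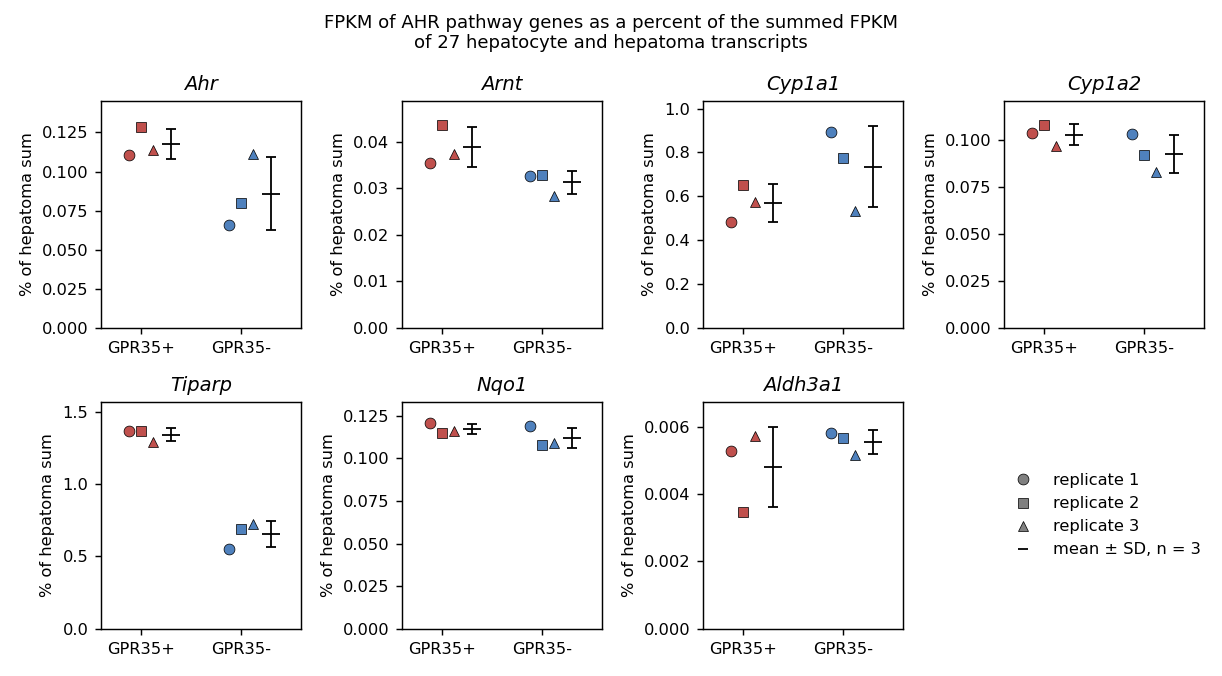
FPKM of the 7 members tested as a percent of the summed FPKM of 27 hepatocyte and hepatoma transcripts in the same library (vertical axes from 0), for GPR35-positive (red, left) and GPR35-negative (blue, right) libraries with mean ± SD. Tiparp is 2.06-fold higher in GPR35-positive libraries, the Nqo1 groups overlap, and GPR35-negative replicate 3 places Cyp1a1 at 0.534%, inside the GPR35-positive range.

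The same scaling was carried through the fit over all genes, where it moved the median log2 fold change from -0.19 to 0.33. After it, limma-trend called 62.7% of all genes, 61.5% as higher and 1.16% as lower in GPR35-positive libraries. Of the 7 members, 3 were higher and 0 lower, and 4 did not pass. Of the 27 hepatocyte and hepatoma transcripts themselves, 10 were higher, 2 were lower and 15 did not pass. The value for Tiparp was 1.04 (SE 0.10, adjusted p = 3.26e-06), and 16.4% of genes had a higher one. Ahr was at 0.47 (SE 0.15, adjusted p = 0.0206) and Arnt at 0.28 (SE 0.10, adjusted p = 0.028), one slightly above and one slightly below that median. Both calls were lost without GPR35-positive replicate 2 (adjusted p = 0.0621 for Ahr and 0.112 for Arnt), and the Ahr call also without GPR35-negative replicate 1 (0.0706) or 2 (0.0609), the Arnt call also without GPR35-positive replicate 3 (0.0595) or GPR35-negative replicate 3 (0.0817), or with the median of the list in place of its sum (0.21, adjusted p = 0.164). Cyp1a1 was at -0.34 (95% interval -0.72 to 0.03, adjusted p = 0.0997), with 0.706% of genes lower. Single libraries moved it both ways: it was at -0.18 without GPR35-negative replicate 1 (adjusted p = 0.348), at -0.23 without GPR35-positive replicate 1 (adjusted p = 0.297), and at -0.56 without GPR35-negative replicate 3, where it passed (adjusted p = 0.00163). Cyp1a2, Nqo1 and Aldh3a1 were at 0.15, 0.06 and -0.14, with 95% intervals of -0.05 to 0.35, -0.09 to 0.22 and -0.38 to 0.11. Without GPR35-negative replicate 1, Cyp1a2 was at 0.23 and passed as higher (adjusted p = 0.0387). The summed neutrophil markers were 10.1-fold and the macrophage markers 21.2-fold higher in the GPR35-positive libraries in which Tiparp was higher, and their part in that rise was not tested.

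Chaperones, partners and coregulators of AHR moved in both directions. Of 16 tested, 3 rose, 6 fell and 7 did not pass as deposited, with a median log2 fold change of -0.07. Of all genes tested, 23.3% rose and 45.5% fell as deposited. With median-of-ratios scaling 5 rose and 5 fell, where 27.1% of all genes tested rose and 30.2% fell. Relative to the hepatoma transcripts 9 rose and 0 fell, where 61.5% of all genes rose and 1.16% fell, so the share that rose was near the background. The chaperone gene Hsp90ab1, whose protein holds the unliganded receptor in the cytoplasm, was at 801 ± 50.4 FPKM in GPR35-positive and 1238 ± 74.7 FPKM in GPR35-negative libraries (SD, n = 3 each, adjusted p = 6.16e-05). The ubiquitin ligase gene Stub1 and the ARNT-related genes Arnt2 and Arntl fell by 0.49, 0.51 and 0.49 on the log2 scale as deposited, and relative to the hepatoma transcripts, where Stub1 turned in sign, none of them passed, with values of 0.11 for Stub1, -0.08 for Arnt2 and -0.01 for Arntl. Hsp90ab1 fell by 0.63 as deposited and was at -0.01 on the hepatoma scale (adjusted p = 0.942). The list members that rose were Relb, an NF-kappaB subunit that can pair with AHR, the coactivator gene Ncoa1 and the chaperone gene Hsp90aa1, at 0.62, 0.28 and 0.25, and they were named after their values were seen. The Hsp90aa1 call (adjusted p = 0.048) was lost without the filter (adjusted p = 0.114).

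Other genes known to answer to AHR moved in both directions as deposited. Of 24 in the list, 14 were tested, 1 of them only through its level in GPR35-positive libraries, and 7 rose and 5 fell with a median of 0.15 (7 and 4 with median-of-ratios scaling, 9 and 1 relative to the hepatoma transcripts, each to be read against the shares of all genes given above). Without a filter 10 rose and 6 fell, with a median of 0.05, where 17.4% of all 19818 genes tested rose and 22.1% fell. Lpcat2, a lysophospholipid acyltransferase gene, was at 45.2, 42.5 and 42.6 FPKM in GPR35-positive libraries and at 3.13, 3.55 and 2.55 FPKM in GPR35-negative libraries. Il10, the gene of an anti-inflammatory cytokine, was at 10.5, 12.8 and 10.8 FPKM in GPR35-positive libraries and at 1.15, 1.17 and 1.12 FPKM in GPR35-negative libraries. Nfe2l2, which encodes NRF2, was at 89.2, 91.2 and 93.0 FPKM in GPR35-positive libraries and at 45.3, 40.0 and 38.6 FPKM in GPR35-negative libraries. These 3 rose under every scaling tried, in the libraries whose summed neutrophil markers were 10.1-fold higher, and the part of those cells in the rise was not tested. Areg, an epidermal growth factor receptor ligand gene, was at 35.1, 37.0 and 37.7 FPKM in GPR35-positive libraries and at 70.9, 75.7 and 69.7 FPKM in GPR35-negative libraries, and it was also lower relative to the hepatoma transcripts, by a log2 fold change of -0.35 (adjusted p = 0.00159). The genes that follow were named after their values were seen. The P450 gene Cyp2s1 and the glucuronosyltransferase gene Ugt1a6b had log2 fold changes of -0.82 and -0.47 as deposited. Relative to the hepatoma transcripts neither passed, at -0.22 and 0.01 (adjusted p = 0.0825 and 0.92). Ugt1a6a, whose span overlaps that of Ugt1a6b, was below the filter and went the other way. It was at 0.907, 1.15 and 1.05 FPKM in GPR35-positive and 0.363, 0.109 and 0.162 FPKM in GPR35-negative libraries (limma-trend without a filter, adjusted p = 0.000634). The others that rose as deposited were Serpinb2, Bach1, Socs2 and Xdh, at 1.26, 1.15, 0.93 and 0.36. Ugdh and Por also fell, at -0.58 and -0.30.

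Other NRF2 targets did not all share the fall of Nqo1. Of 12, 4 rose and 6 fell as deposited, 5 rose and 2 fell with median-of-ratios scaling, and 9 rose and 1 fell relative to the hepatoma transcripts. The shares of all genes were 23.3% higher and 45.5% lower as deposited, and 27.1% higher and 30.2% lower with median-of-ratios scaling. Relative to the hepatoma transcripts the shares were 61.5% higher and 1.16% lower. The cystine transporter gene Slc7a11 was at 99.0 ± 2.33 FPKM in GPR35-positive and 18.9 ± 1.81 FPKM in GPR35-negative libraries, and the heme oxygenase gene Hmox1 at 315 ± 15.6 FPKM in GPR35-positive and 209 ± 8.45 FPKM in GPR35-negative libraries (SD, n = 3 each), both higher under every scaling tried, in the libraries with the higher neutrophil and macrophage marker sums, whose part in these rises was not tested. The malic enzyme gene Me1 fell by 0.92 on the log2 scale and was also lower relative to the hepatoma transcripts (log2 fold change -0.33, adjusted p = 0.0184). The aldo-keto reductase gene Akr1b8 fell by 0.51, and relative to the hepatoma transcripts it was at 0.11 (adjusted p = 0.245).

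**Figure D4:**
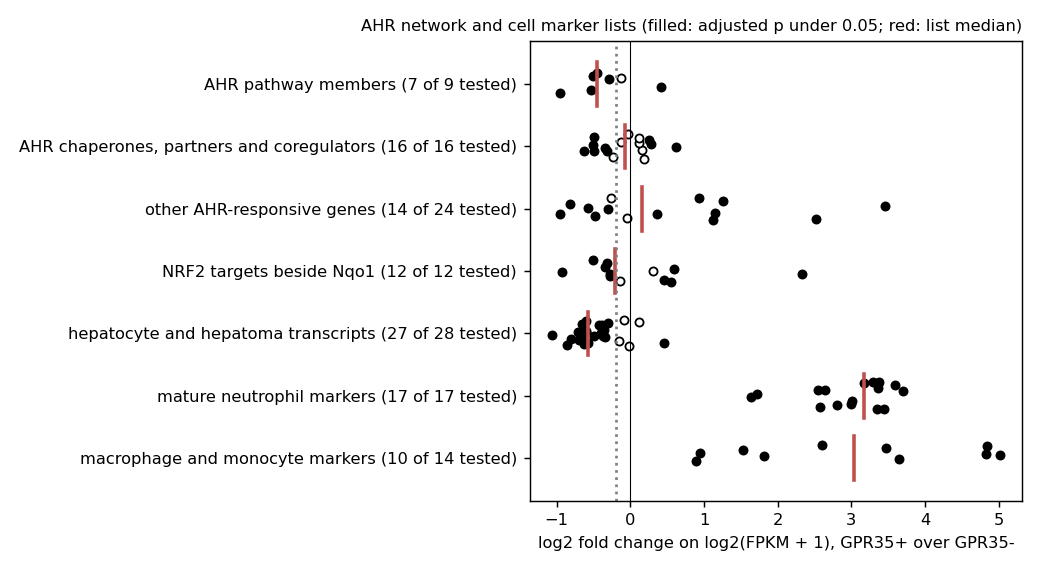
Log2 fold change on the log2(FPKM + 1) scale of every tested gene in 7 lists (points, filled where the adjusted p is under 0.05; vertical scatter is for display only), with each list's median in red and the median of all genes tested as a dotted line at -0.19. The AHR pathway members lie mostly left of the dotted line near the hepatocyte and hepatoma transcripts, whose median is -0.58, while the neutrophil markers have a median of 3.17.

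By pattern over the 6 libraries, the genes most like Cyp1a1 among those tested included Brat1 and Atf7, with Pearson correlations of 0.9995 and 0.9991 on log2(FPKM + 1). Brat1 was at 0.964, 1.22 and 1.15 FPKM in GPR35-positive libraries and at 2.12, 1.93 and 1.51 FPKM in GPR35-negative libraries, so it too was lowest of its group in GPR35-negative replicate 3. Those most like Tiparp were Micu2, Ccnl2 and Reep3 (0.9972, 0.996 and 0.9925), and those most like Ahr were Map4k5, Kmt5b and Gga2 (0.984, 0.9833 and 0.9739). Map4k5 was at 3.71, 4.13 and 3.80 FPKM in GPR35-positive libraries and at 3.60, 4.06 and 6.15 FPKM in GPR35-negative libraries, and like Ahr was highest in GPR35-negative replicate 3. These are among the highest of 10059 correlations over 6 points that share libraries, depth and group, and are a description only.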

How the data were processed

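RNA of 6 mouse libraries was compared, 3 labelled GPR35-positive and 3 GPR35-negative, grouped by title. RNA had been isolated with Trizol and prepared with a NEBNext Ultra II kit, per the labels' protocols. The values are FPKM computed by the authors, per the file headers. The submitters' processing notes name, without roles, HTSeq 0.9.1, DESeq 1.38.3, the aligner HISAT2 2.1.0 and fastp 0.22.0, and the human build GRCh38, while the IDs are mouse Ensembl genes. The authors' annotation is not stated. Symbols, positions and exon lengths came from GENCODE M21 (GRCm38), which held 21902 of 21959 IDs. With those lengths 97.7% of values above 0 were whole reads within 0.02 reads, which gave the depth of each library.

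The test was limma-trend (limma 3.58.1, R 4.3.3), two-sided, on log2(FPKM + 1) with no term beside group. It took the 10060 genes that reached 1 FPKM in 3 or more libraries, and p-values were adjusted over all of them (Benjamini-Hochberg). Fold changes on this scale understate those of low genes. The second fit first scaled each library to the summed hepatocyte and hepatoma transcripts. H19, also on that list, was not analysed here. The sum rests mostly on a few genes. Its mean in GPR35-negative libraries was 36765 FPKM, with Trf at 10855, Krt18 at 6522, Rbp4 at 6403, Krt8 at 5379 and Apoe at 3053 FPKM. Single ratios were compared with an exact two-sided permutation test over libraries. The test was tried on simulated data. Alternatives were a pseudocount of 0.1, other filters, other scalings, limma-voom on recovered reads, a replicate block and leaving out each library. All 9 members were named in full. From each further AHR list the 4 tested genes with the smallest p were named, with exceptions marked, and the 6 most abundant hepatoma transcripts. Of the genes closest in pattern to Ahr, Cyp1a1 and Tiparp, 3 each were sought, and 1 is not reported here. The members and lists were chosen with earlier results of these data known. Tables were read with Python 3.11.15, pandas 2.3.3 and scipy 1.17.1.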

Additional observations from a re-analysis of the deposited data

How the results depend on the processing

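As deposited, 1 member rose under every alternative other than scaling to the hepatoma transcripts, which gave 3 higher and 0 lower. Without each library in turn 1 rose and 4 to 5 fell. The share of all genes called lower was 22.1% without a filter and 30.2% with median-of-ratios scaling, against 45.5% as deposited; it was 1.16%, and the share higher 61.5%, after scaling to the hepatoma transcripts. Leaving out each library gave 17.2% to 23.8% higher and 38.8% to 44.9% lower. Higher calls made up 33.9% of all calls as deposited and 47.4% after median-of-ratios scaling, where the median of all genes was -0.07. Ahr changed sign with median-of-ratios scaling (0.0086), without GPR35-negative replicate 3 (0.085, in a range from -0.293 over libraries left out) and with hepatoma scaling (0.47), which also turned Arnt (0.28), Cyp1a2 (0.15) and Nqo1 (0.062). Arnt was called lower as deposited and higher on the hepatoma scale, as was Cyp1a2 there without GPR35-negative replicate 1 (0.23). Relative to the hepatoma transcripts, the median of the list in place of its sum gave 1 member lower, Cyp1a1 (-0.42, adjusted p = 0.00169), ended the Arnt call (0.21, adjusted p = 0.164) and turned Nqo1 to -0.018. There, leaving out each library gave 1 to 3 higher and 0 to 1 lower. The causes of these changes were not tested. Deviations of same-numbered libraries from their group means correlated at -0.00177, 0.400 and -0.0642 for numbers 1, 2 and 3. The value for number 2 was the highest of all pairings between the groups. With means of 3 libraries these correlations cannot decide whether the numbers pair the samples, and the sources used here do not say. With a replicate block 1 member rose and 5 fell as deposited, where 23.5% of all genes tested rose and 46.1% fell. Relative to the hepatoma transcripts 3 rose and 0 fell with that block. For the alternatives on that scale the shares of all genes are not given here. In its main fit they were 61.5% higher and 1.16% lower. Depth limits Ahrr, Cyp1b1 and Aldh3a1.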
